A study of Mus musculus with 8 samples.

Results

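The mitochondrial ribosomal proteins and the translocases that carry proteins into mitochondria were examined in neural tube tissue of mouse embryos. Members were chosen by gene symbol, as every symbol in the tables of the form Mrpl or Mrps followed by a number, or beginning with Timm or Tomm and a number. The rule took 98 of 26608 symbols, and used no measured value. Of these, 47 were large subunit proteins, 29 small subunit proteins, 12 inner membrane and intermembrane space (Timm) members and 10 outer membrane (Tomm) members.

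Transcript tags were counted in 4 libraries of neural tube protrusions and 4 of open neural tube, all from FVB embryos of diabetic dams at embryonic day 8.5. Protrusions were outgrowths cut by laser from cryosections of the open neural plate, and the axial level at which each was taken is not stated. Protrusion 1 was labelled separated, and protrusions 2, 3 and 4 attached. Open neural tubes 9, 10, 13 and 14 were sections of normal morphology just in front of closure site 1, where the neural folds first meet. Both groups came from diabetic pregnancies, so the comparison is between tissues within such pregnancies. Protrusion and axial level cannot be told apart, and labels do not say whether libraries came from separate embryos, so p-values measure the spread between libraries. In such bulk tissue, fewer cells of a type and less RNA per cell cannot be told apart either.

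Mitochondrial ribosomes translate the few proteins coded by mitochondrial DNA, all of them subunits of the oxidative phosphorylation complexes. The proteins of these ribosomes are coded in the nucleus, made in the cytosol and imported. Precursors cross the outer membrane through the TOM complex, then pass through TIM23 into the matrix or through TIM22 into the inner membrane. Small Timm chaperones escort hydrophobic precursors across the space between the membranes.

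SAGE, the method used here, reads 1 short tag per transcript, next to a restriction site near its 3′ end. A level therefore does not grow with transcript length, and a gene without a site is not expected to be seen. The SAGE enzyme cuts at CATG (background knowledge, not given in the labels), and the last such site with the bases after it gives a predicted tag of 27 bases. A tag could be predicted for 96 of the 98 members from GENCODE M21 coding transcripts, and 91 of these tags occurred in no other gene. It lay in the 3′ UTR for 75 members, in the coding sequence for 20 and in the 5′ UTR for 1, at a median of 162 bases from the transcript's 3′ end. The prediction uses 1 transcript per gene and may differ from the tags the submitters counted. Sharing was looked for as exact matches in annotated transcripts only, so matches elsewhere in the genome, as in repeats, were not searched. Predicted tags of 8 members described in detail further on, from each class, are shown with the cut site in capitals, since a stretch of this kind is what the method reads.
Tomm20: CATGttatactgtgtttatgtaaagca
Tomm70a: CATGtgctaaaccagtattgtgtaggt
Timm23: CATGttaattcatttaaaaaatctaaa
Timm17a: CATGgcctttgatcagctcctgcctac
Timm13: CATGccctgctcctggagactcgtggc
Mrpl28: CATGtgccgagcacacagttcctgtgg
Mrps9: CATGgtttatttttagtgctattttgt
Mrps18a: CATGctgccccggcgggtcacaggctt
The Mrps18a tag lies in the coding sequence, 559 bases from the 3′ end, at the 1 site of its transcript. The Timm23 tag is shared with the protein-coding gene Gm10273, so Timm23 values are uncertain to the extent that both genes are transcribed. The other 4 shared tags belong to Mrpl22, Mrpl23, Mrpl53 and Mrps18c.

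Library totals ran from 5668054 to 16655583 tags, and values are CPM, tag counts scaled to a common total. The libraries differed in how many genes they held. After thinning to the smallest total, 14360 to 15559 genes were detected in protrusions and 9920 to 11244 in open neural tubes. A protrusion library lacked 0.0915% to 0.549% of the genes whose average level lay between 5 and 20 CPM, and an open neural tube library lacked 4.85% to 18.8% of them. Of the neural plate markers, 10 of 10 were detected in both groups, with summed levels of 1362 to 2575 CPM in protrusions and 2915 to 3574 CPM in open neural tubes. The markers did not all lie one way, with 3 higher and 2 lower in protrusions at an unadjusted p below 0.05. Primitive streak and posterior markers (12 genes) summed to 317 to 1442 CPM in protrusions and 6.62 to 48.3 CPM in open neural tubes, where Cdx4, Mixl1, Evx1, Msgn1 and Hes7 were at 0. Hes7 was also at 0 in protrusions. Erythroid markers (9 genes) summed to 0.430 to 46.2 CPM in protrusions and 1.06 to 1010 CPM in open neural tubes. The part of these differences in the members' values was not tested.

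No member differed between the groups past the threshold, an adjusted p of 0.05 over all 11036 genes that passed a low-count filter. The test (edgeR, quasi-likelihood) was made for 91 members and called 0 of them, against 0.607% of all genes. At an unadjusted p below 0.05 stood 25 members, or 27.5% against 15.3% of all genes. Fitted levels in protrusions were higher for 15 of them (7.02% of all genes) and lower for 10 (8.33% of all genes). The median log2 fold change of the 91 members, protrusion over open neural tube, was 0.07, and that of all genes 0.08. DESeq2 called 8 of 91 members, or 8.79% against 7.39% of the genes to which it gave an adjusted p. The third method, limma-voom, called 0 of 91 members against 3.35% of all genes, with 31 members at an unadjusted p below 0.05 against 22.8% of all genes. DESeq2 put 31 members at such a p as well, against 18.2%. Because the test reaches small p-values more readily at high counts, shares are also given by level. At a mean of 100 CPM or more, 43.3% of 30 members and 33.9% of all genes had an unadjusted p below 0.05, and at 20 to 100 CPM 21.6% of 37 members and 18.8% of all genes. Below 20 CPM it was 16.7% of 24 members and 6.57% of all genes. No test of these differences in share was made.

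Within each class, members lay on both sides of 0. Fitted fold changes were above 0 for 23 and below 0 for 23 of the large subunit members, with a median of -0.01 on the log2 scale. Of the small subunit members, 14 were above 0 and 12 below, with a median of 0.25. Timm members were above 0 in 8 cases and below in 3, with a median of 0.54, and Tomm members in 5 and 3, with a median of 0.12. Some medians moved when 1 library was left out. That of the small subunit was 0.42 without protrusion 4, 0.45, 0.80 and 0.49 without open neural tubes 10, 13 and 14, and 0.77 with limma-voom. Those refits without a library tested 27 or 28 small subunit members, against 26 in the main fit. The set of genes thus changed along with the library. The Timm median was 0.24 without protrusion 2. The Tomm median was 0.08 and 0.30 without protrusions 1 and 3, and 0.30 and 0.22 without open neural tubes 9 and 13. The large subunit median ran from -0.06 to 0.10 without 1 library.

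**Figure D1:**
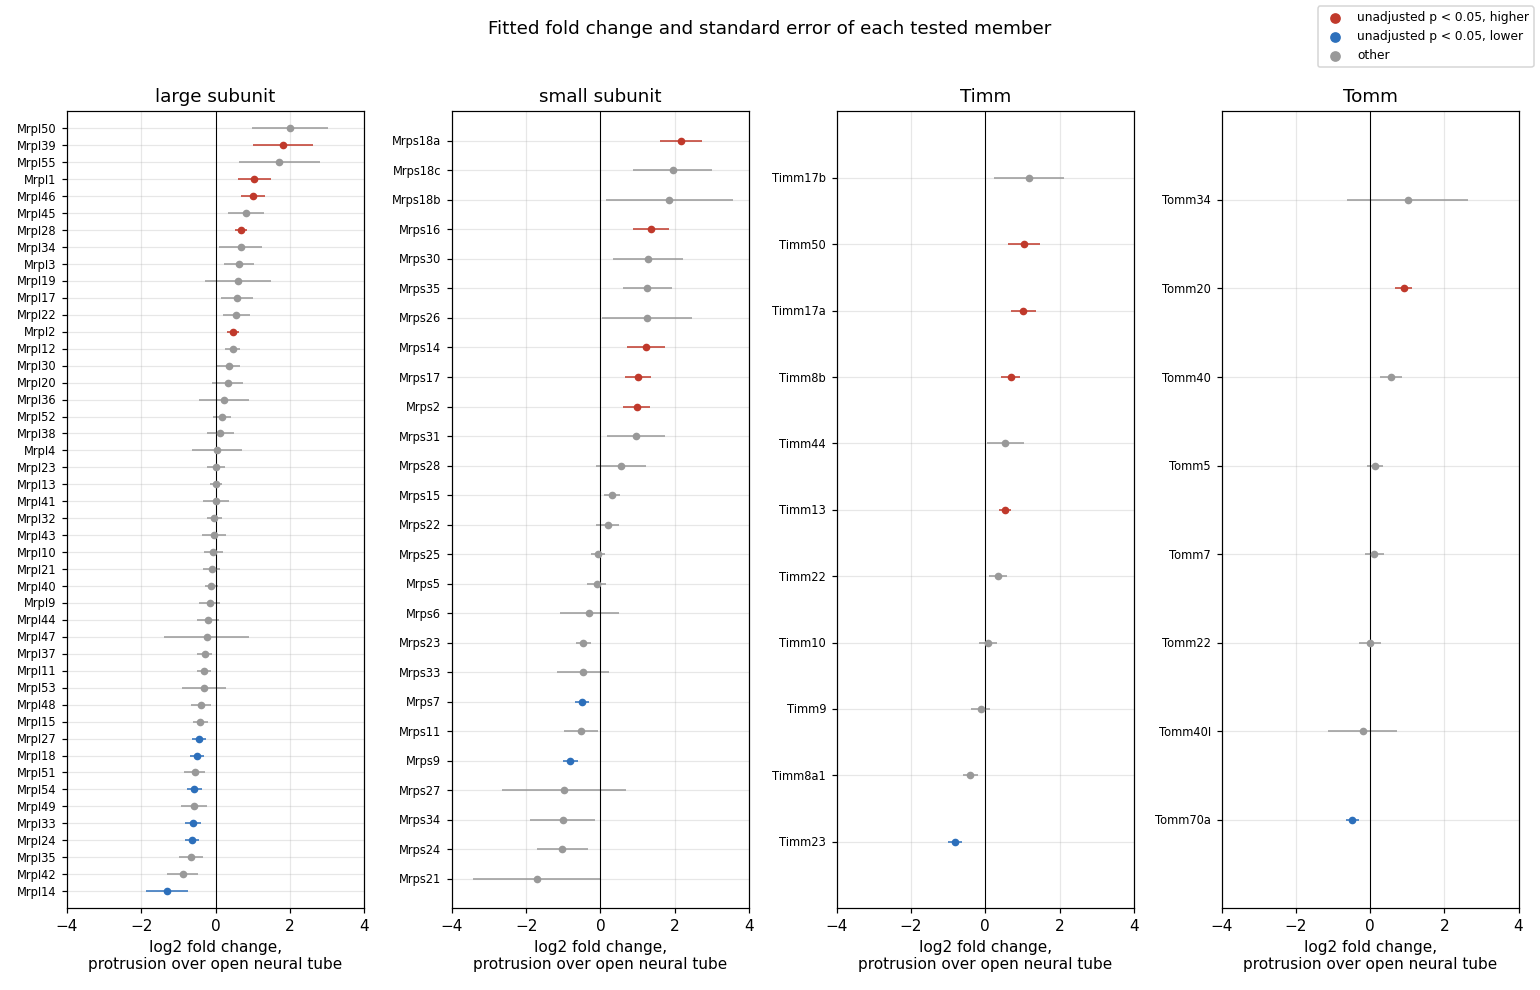
Fitted log2 fold change (protrusion over open neural tube) of each of the 91 tested members by class, with bars of 1 standard error. Red and blue points have an unadjusted p below 0.05, 15 of them right of 0 and 10 left of it, and no point passed the adjusted threshold.

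The outer membrane translocase held the member with the highest mean over all 8 libraries, Tomm20, although in open neural tubes alone Mrpl18 (518 CPM) and Tomm70a (509 CPM) had higher means. This receptor, which binds presequences of incoming precursors, stood at 855, 876, 649 and 664 CPM in protrusions 1 to 4, against 505, 428, 324 and 279 CPM in open neural tubes 9, 10, 13 and 14. Every protrusion was above every open neural tube, with a mean of 761 ± 121 CPM in protrusions and one of 384 ± 102 CPM in open neural tubes (SD, n = 4 each). The log2 fold change was 0.91 ± 0.23 (SE), with an adjusted p of 0.0832. Over the 16 alternative settings the adjusted p ran from 0.00693, with DESeq2, to 0.219.

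Tomm70a, the receptor for carrier precursors and others with internal signals, lay the other way. It had 379, 378, 412 and 377 CPM in protrusions 1 to 4, against 466, 685, 397 and 489 CPM in open neural tubes 9, 10, 13 and 14. In CPM of library totals the groups overlapped, since protrusion 3 was above open neural tube 13. The TMM factors of these libraries, which rescale totals, were 1.13 and 0.947 and reverse that order, so the overlap depended on scaling. The log2 fold change, which uses these factors, was -0.48 ± 0.17 (SE, adjusted p = 0.201). The ratio of Tomm20 to Tomm70a tags within a library, looked at after both values were seen and given without a test, was 2.25, 2.32, 1.57 and 1.76 in protrusions 1 to 4 and 1.08, 0.625, 0.815 and 0.570 in open neural tubes 9, 10, 13 and 14. It needs no scaling between libraries, and the groups did not overlap. This repeats the opposite directions of the 2 genes and is not separate support.

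Tomm22, the central receptor that joins the channel to the other receptors, had close means, 44.4 ± 6.21 CPM in protrusions, as against 41.6 ± 11.2 CPM in the open neural tubes. Its fitted log2 fold change was -0.01 ± 0.30 (SE), and its sign changed with the scaling method. Tomm40, the channel itself, stood at 315, 174, 256 and 151 CPM in protrusions 1 to 4, against 177, 162, 144 and 82.3 CPM in open neural tubes 9, 10, 13 and 14. The groups overlapped (log2 fold change 0.57 ± 0.29, adjusted p = 0.396). Its paralog Tomm40l was far rarer, at 4.16 to 8.22 CPM in protrusions and 0.529 to 11.8 CPM in open neural tubes.

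The small channel-associated subunits Tomm5 and Tomm7 were abundant and overlapped between the groups. Tomm7 ran from 260 to 446 CPM in protrusions and from 191 to 384 CPM in open neural tubes, with a log2 fold change of 0.12 ± 0.27. Tomm5 ran from 92.7 to 146 CPM in protrusions and from 89.2 to 132 CPM in open neural tubes. Tomm34, a cytosolic cochaperone, stayed at or below 3.87 CPM in every library (log2 fold change 1.01 ± 1.62, adjusted p = 0.836).

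**Figure D2:**
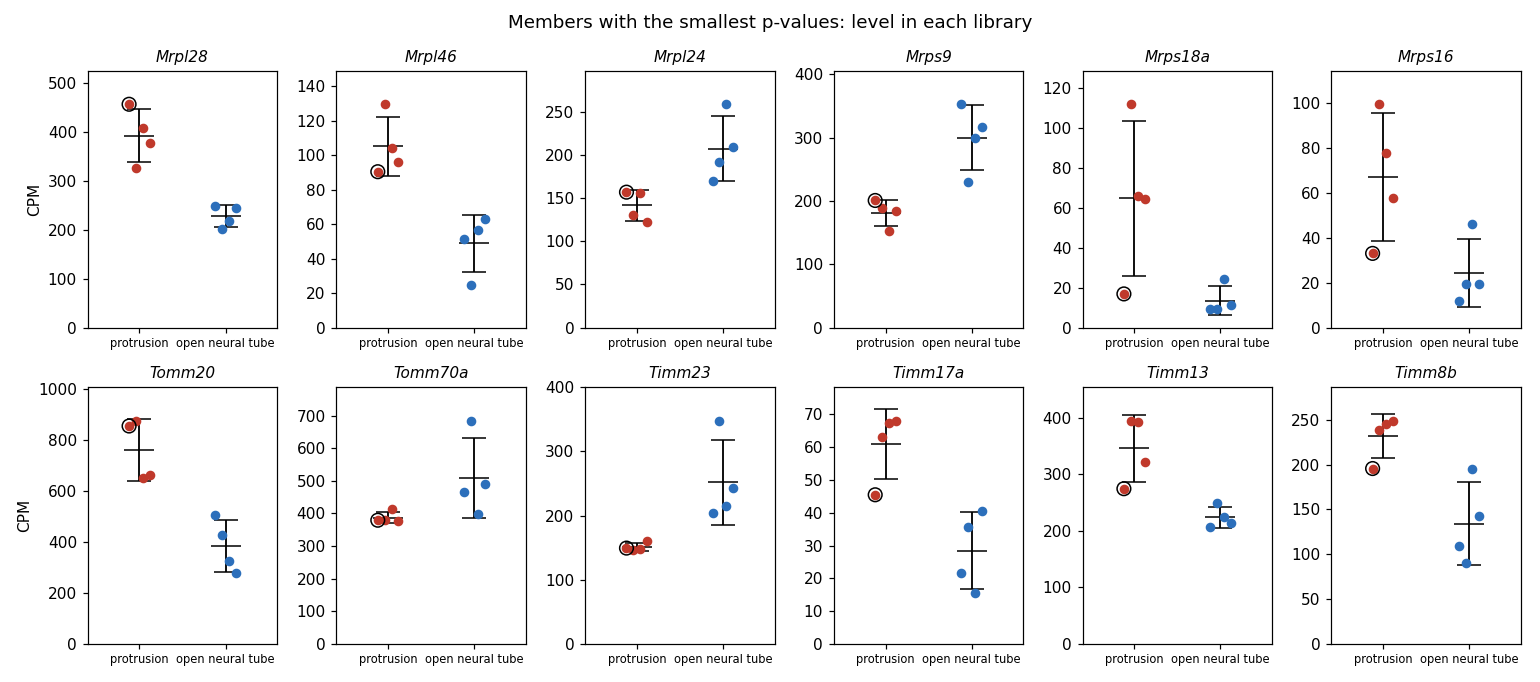
CPM of 12 members in each library, among them those with the smallest p-values of their class, protrusions left and open neural tubes right, with the mean and SD of 4 libraries. The circled point is protrusion 1, the separated one, which was the lowest protrusion in Mrps18a, Mrps16 and Timm17a among others (16.9, 33.0 and 45.5 CPM).

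Among inner membrane members, the channel subunits of TIM23 lay on opposite sides. Timm23 had 149, 146, 147 and 160 CPM in protrusions 1 to 4, against 203, 348, 214 and 242 CPM in open neural tubes 9, 10, 13 and 14. Every protrusion was below every open neural tube, with a log2 fold change of -0.82 ± 0.19 (SE) and an adjusted p of 0.0785, the smallest of any member. Protrusions were close together (151 ± 6.07 CPM) and open neural tubes further apart (252 ± 66.1 CPM, SD, n = 4 each).

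Timm17a, its partner in the channel, stood at 45.5, 63.1, 67.4 and 68.1 CPM in protrusions 1 to 4, against 21.7, 35.6, 15.4 and 40.6 CPM in open neural tubes 9, 10, 13 and 14. The groups did not overlap (log2 fold change 1.03 ± 0.33, adjusted p = 0.164). The within-library ratio of Timm17a to Timm23 tags, also chosen after the values were seen, was 0.305 to 0.457 in protrusions and 0.0720 to 0.167 in open neural tubes. Since Timm17a was higher and Timm23 lower in every protrusion, this ratio could not overlap and adds no support. The Timm23 tag is also shared with Gm10273. Of other ratios formed, Timm13 to Timm8a1 did not overlap. Those of Timm17a to Timm17b, Timm8a1 to Timm8b and Tomm40 to Tomm40l did. Timm17b, the other form of this subunit, ranged more widely, from 3.44 to 40.2 CPM in protrusions and from 0.529 to 19.4 CPM in open neural tubes (log2 fold change 1.17 ± 0.94).

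Timm50, the TIM23 receptor that takes presequences from TOM, had 22.4, 48.2, 61.3 and 62.5 CPM in protrusions 1 to 4, against 12.2, 15.0, 30.0 and 29.8 CPM in open neural tubes 9, 10, 13 and 14. The separated protrusion lay within the range of the open neural tubes, and the log2 fold change was 1.05 ± 0.43 (adjusted p = 0.265). Timm44, which tethers the import motor, had 26.7 CPM in the separated protrusion and 118 to 207 CPM in the attached ones, against 54.7 to 108 CPM in open neural tubes. Timm22, the carrier translocase channel, overlapped between the groups, at 73.3 to 103 CPM in protrusions and 42.0 to 76.0 CPM in open neural tubes.

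The small Timm chaperones work as ring-shaped complexes, Timm9 with Timm10 for carriers and Timm8 proteins with Timm13 for other precursors, Timm23 among them in yeast and human cells. Timm13 stood at 274, 395, 393 and 321 CPM in protrusions 1 to 4, against 206, 249, 225 and 214 CPM in open neural tubes 9, 10, 13 and 14. Timm8b had 196, 238, 245 and 249 CPM in protrusions 1 to 4, against 110, 89.8, 195 and 142 CPM in open neural tubes 9, 10, 13 and 14. In CPM of library totals both were higher in every protrusion than in any open neural tube, Timm8b narrowly. For Timm8b, the TMM factors of protrusion 1 (1.01) and open neural tube 13 (0.947) reverse the order of these libraries, so the groups then overlap. The log2 fold changes were 0.54 ± 0.17 (adjusted p = 0.141) for Timm13 and 0.69 ± 0.26 (adjusted p = 0.220) for Timm8b.

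The Timm8 paralog Timm8a1, the mouse counterpart of the gene of human deafness-dystonia syndrome, had 132, 135, 103 and 120 CPM in protrusions 1 to 4, against 186, 144, 124 and 158 CPM in open neural tubes 9, 10, 13 and 14. Its groups overlapped, with a log2 fold change of -0.40 ± 0.21. Timm9 and Timm10 overlapped as well, with log2 fold changes of -0.13 ± 0.25 for Timm9 and 0.07 ± 0.25 for Timm10. Summed over the 6 small chaperones, levels were 786 to 901 CPM in protrusions and 617 to 691 CPM in open neural tubes, without overlap. This sum rests on Timm13 and Timm8b, with means of 346 and 232 CPM in protrusions against 223 and 134 CPM in open neural tubes. Over the 5 tested chaperones the median log2 fold change was 0.07, so it does not show a shift of the group.

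Large subunit proteins surround the RNA core that joins amino acids. Mrpl28 stood at 457, 328, 410 and 377 CPM in protrusions 1 to 4, against 250, 202, 219 and 244 CPM in open neural tubes 9, 10, 13 and 14. The groups did not overlap (protrusions 393 ± 54.6 CPM, open neural tubes 229 ± 22.6 CPM, SD, n = 4 each), and the log2 fold change was 0.69 ± 0.17 with an adjusted p of 0.0824. With genes required to reach 20 CPM in 4 libraries, fewer were tested, its adjusted p was 0.0446, and it was the 1 member called, against 2.81% of those genes. Its adjusted p ran from 0.00343 to 0.221 over the alternatives.

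Mrpl46 had 90.5, 130, 104 and 96.2 CPM in protrusions 1 to 4, against 51.1, 24.9, 56.4 and 62.8 CPM in open neural tubes 9, 10, 13 and 14. Mrpl2, the counterpart of a bacterial protein at the catalytic centre, was even among replicates, with 245, 265, 225 and 238 CPM in protrusions 1 to 4, against 177, 166, 166 and 157 CPM in open neural tubes 9, 10, 13 and 14. Neither overlapped between the groups, and the log2 fold changes were 1.01 ± 0.31 for Mrpl46 (adjusted p = 0.142) and 0.46 ± 0.16 for Mrpl2 (adjusted p = 0.196).

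On the lower side, Mrpl24, whose bacterial counterpart starts subunit assembly, stood at 157, 131, 156 and 122 CPM in protrusions 1 to 4, against 170, 192, 258 and 209 CPM in open neural tubes 9, 10, 13 and 14. Mrpl33 had 156, 109, 92.6 and 140 CPM in protrusions 1 to 4, against 167, 170, 187 and 189 CPM in open neural tubes 9, 10, 13 and 14. In both genes every protrusion was below every open neural tube, with log2 fold changes of -0.65 ± 0.19 for Mrpl24 (adjusted p = 0.116) and -0.60 ± 0.22 for Mrpl33 (adjusted p = 0.207). Mrpl54, a protein with no bacterial counterpart, overlapped between the groups, at 124 to 184 CPM in protrusions and 166 to 267 CPM in open neural tubes (log2 fold change -0.58 ± 0.21).

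The 3 large subunit members with the highest mean over all 8 libraries overlapped between the groups. In protrusions alone the mean of Mrpl28 exceeded those of Mrpl18 and Mrpl9, and in open neural tubes alone the mean of Mrpl15 (343 CPM) exceeded that of Mrpl9 (334 CPM). Mrpl18 ran from 308 to 464 CPM in protrusions and from 437 to 571 CPM in open neural tubes (log2 fold change -0.50 ± 0.19, adjusted p = 0.226). Mrpl13 ran from 325 to 498 CPM in protrusions and from 333 to 474 CPM in open neural tubes, with a log2 fold change of 0.01 ± 0.17, a standard error that leaves room for a modest change either way. Mrpl9 had 274 to 403 CPM in protrusions and 232 to 556 CPM in open neural tubes (log2 fold change -0.15 ± 0.28).

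Small subunit proteins hold the messenger RNA and its decoding site. Mrps9 was the most abundant of them and stood at 201, 189, 152 and 184 CPM in protrusions 1 to 4, against 353, 231, 299 and 317 CPM in open neural tubes 9, 10, 13 and 14. Every protrusion was below every open neural tube (protrusions 181 ± 20.6 CPM, open neural tubes 300 ± 51.3 CPM, SD, n = 4 each). The log2 fold change was -0.81 ± 0.20, with an adjusted p of 0.0832. Mrps7 lay the same way, with 71.0, 58.6, 82.5 and 70.7 CPM in protrusions 1 to 4, against 90.1, 95.6, 90.7 and 96.5 CPM in open neural tubes 9, 10, 13 and 14 (log2 fold change -0.50 ± 0.18, adjusted p = 0.222). Mrps23, without a bacterial counterpart, overlapped narrowly, at 56.9 to 73.7 CPM in protrusions and 70.5 to 95.4 CPM in open neural tubes.

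Mrps18a had the largest fold change of the tested members. It stood at 16.9, 112, 66.1 and 64.5 CPM in protrusions 1 to 4, against 9.28, 9.53, 24.1 and 11.1 CPM in open neural tubes 9, 10, 13 and 14. The separated protrusion was below open neural tube 13, so the groups overlapped, and the log2 fold change was 2.17 ± 0.56 with an adjusted p of 0.0849. Without the separated protrusion it was 2.49 and the adjusted p 0.0390, against 1.5% of all genes called in that fit. Without open neural tube 13 as well it was 2.95 and the adjusted p 0.0165, with 1.88% of all genes called. These 2 libraries are the ones that make the groups overlap, so the smaller p without them adds no support. Over all alternatives the adjusted p ran from 0.00465 to 0.221. Its protein is named for the small subunit but sits in the large subunit in mammalian structures. Its paralogs had lower mean levels, Mrps18c at 15.1 to 20.4 CPM in protrusions and 0 to 10.3 CPM in open neural tubes, and Mrps18b at 0.164 to 2.88 CPM in protrusions and 0 to 1.44 CPM in open neural tubes.

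Mrps16, which is mutated in a human disorder of mitochondrial translation, had 33.0, 99.5, 77.9 and 57.8 CPM in protrusions 1 to 4, against 11.8, 19.4, 46.2 and 19.5 CPM in open neural tubes 9, 10, 13 and 14. Again only the separated protrusion lay within the range of the open neural tubes (log2 fold change 1.37 ± 0.48, adjusted p = 0.191). Mrps17 did not overlap, with 78.9, 87.2, 97.9 and 107 CPM in protrusions 1 to 4, against 57.8, 18.2, 54.6 and 41.1 CPM in open neural tubes 9, 10, 13 and 14. Its log2 fold change was 1.00 ± 0.35 with an adjusted p of 0.196. The abundant Mrps5 and Mrps25 overlapped, with log2 fold changes of -0.10 ± 0.25 for Mrps5 and -0.06 ± 0.19 for Mrps25.

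Across all tested members, CPM values of the groups did not overlap for 23 of 91, or 25.3% against 13.4% of all genes. Of these, 16 were higher in every protrusion and 7 lower, against 8.84% and 4.55% of all genes. Overlap of single genes was judged throughout on CPM of library totals, without the TMM factors used for fold changes. Where libraries lie close, those factors can change it, as for Timm8b and Tomm70a. Under a mean of 20 CPM, where open neural tube libraries had the most genes at 0, 24 members were tested and 7 did not overlap (29.2%), 7 higher and 0 lower in protrusions. Of all genes at that level 10.5% did not overlap, 496 higher and 79 lower, so most lay on the higher side there too. The low-count filter can let a rare gene in through the protrusion libraries alone. Mrpl55 was at 0 CPM in open neural tube 14, Mrps18c at 0 CPM in open neural tube 10 and Mrpl39 at 0.353 CPM there. Across the remaining open neural tubes these genes ran from 2.27 to 12.3 CPM, so they were not seen in protrusions alone. Mrpl1, Mrpl45, Mrps14 and Mrps35, also without overlap, had 1.38 CPM or more in every open neural tube. The part of the filter in the one-sided count was not tested, and the count is not read as a result about the members. At 20 to 100 CPM, 4 members were higher and 3 lower (18.9%), against 312 higher and 178 lower of all genes (13.3%). At 100 CPM or more, 5 members were higher and 4 lower (30.0%), against 168 higher and 245 lower of all genes (21.8%). Members at 0 numbered 5, 3, 2 and 3 in protrusions 1 to 4, against 8, 10, 4 and 7 in open neural tubes 9, 10, 13 and 14.

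**Figure D3:**
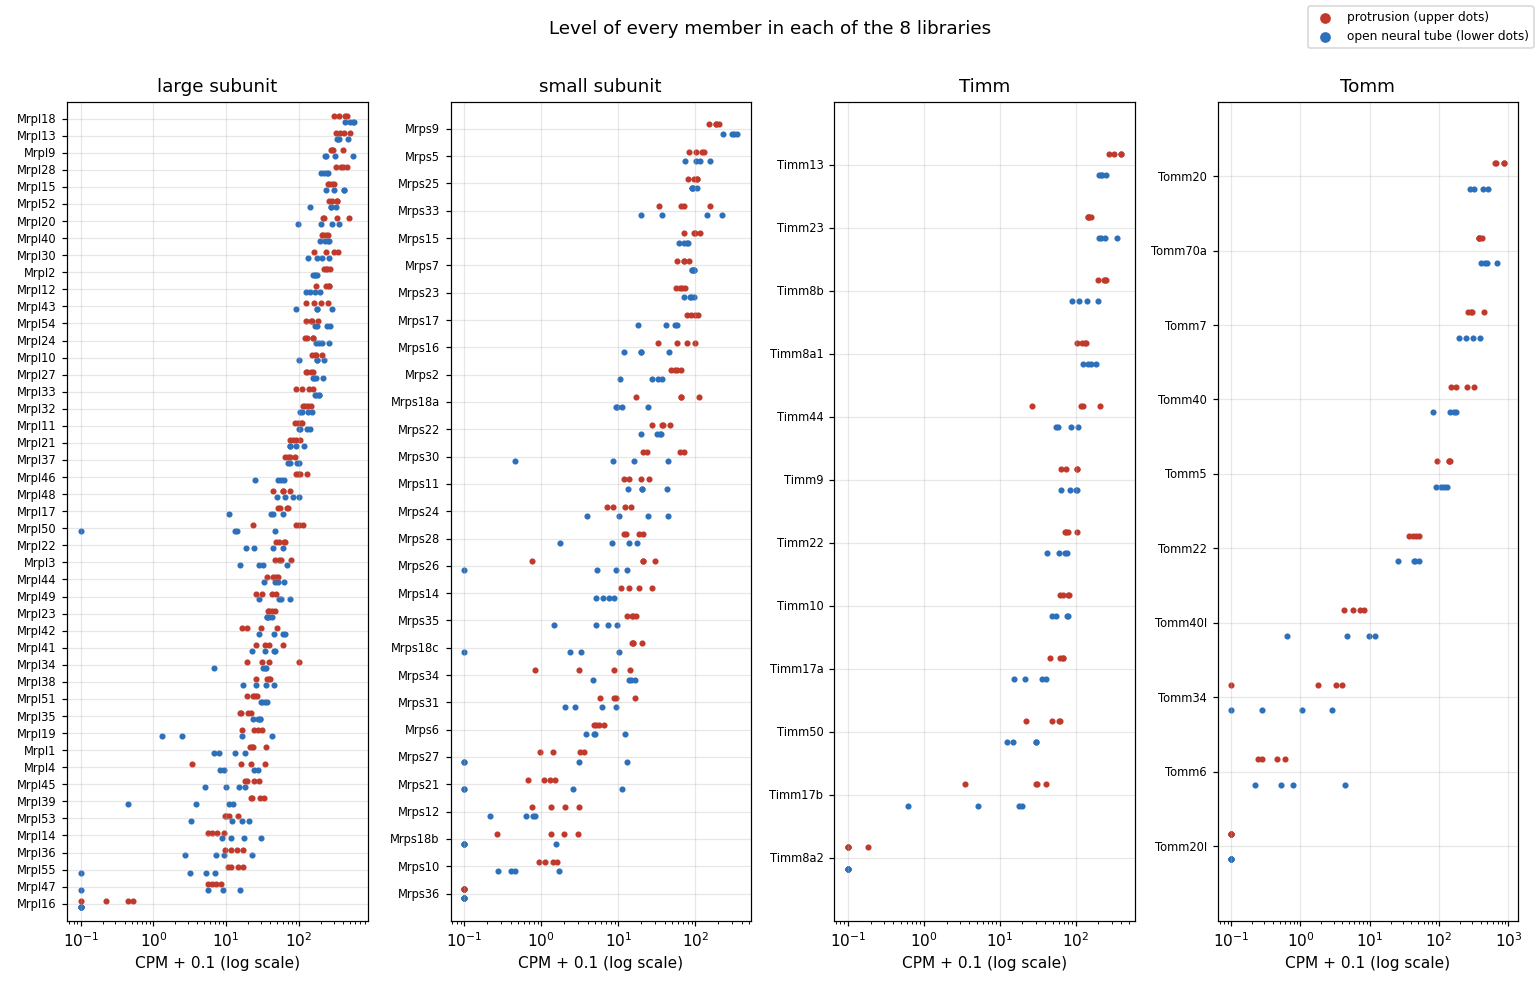
CPM of all 98 members in each library on a log axis (0.1 added so that 0 can be drawn), ordered by mean level within each class, protrusions above and open neural tubes below. Points of abundant members spread little on this axis, although 9 of the 30 with a mean of 100 CPM or more did not overlap between the groups. Open neural tube points spread to the left among rare members, as for Mrpl39 (0.353 to 12.3 CPM, against 21.9 to 32.9 CPM in protrusions).

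The order of levels among members was much alike in both tissues, with a Spearman correlation of group means of 0.954 over 98 members and 0.910 over the 11036 tested genes. Each pair of means shares its gene's tag, so the value is a description. By class, median levels of tested members over all libraries were 151 CPM for Tomm, 87.8 CPM for Timm, 59.0 CPM for the large subunit and 26.0 CPM for the small subunit. Replicates varied less in protrusions, with a median coefficient of variation over members of 18.8% in protrusions and 33.3% in open neural tubes. All genes showed the same, with 29.1% in protrusions and 54.5% in open neural tubes.

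Summed levels of the classes overlapped for the large subunit, the small subunit, Timm and Tomm. Large subunit tags summed to 5575 ± 153 CPM in protrusions, as against 5297 ± 324 CPM in the open neural tubes, and small subunit tags to 1206 ± 90.7 CPM in protrusions and a mean of 1128 ± 97.7 CPM in open neural tubes (SD, n = 4 each). Timm tags summed to 1348 ± 168 CPM in protrusions, as against 1117 ± 39.0 CPM in the open neural tubes, and Tomm tags to 1877 ± 223 CPM in protrusions and a mean of 1477 ± 252 CPM in open neural tubes. With totals corrected by TMM factors, the protrusion sum minus the open neural tube sum was -48.3 CPM for the large subunit (278 CPM before correction) and 4.49 CPM for the small subunit (77.4 CPM before). It was 157 CPM for Timm (232 CPM before) and 304 CPM for Tomm (399 CPM before). No test was made on sums.

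**Figure D4:**
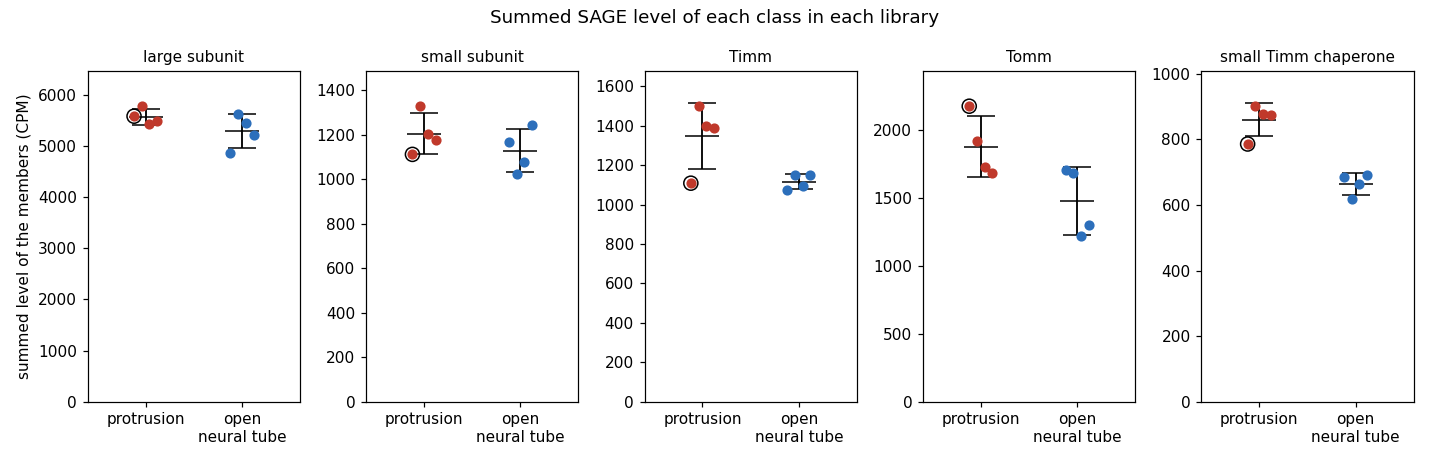
Summed CPM of the members of each class, and of the 6 small Timm chaperones, in each library, protrusions left and open neural tubes right, with the mean and SD of 4 libraries. The circled point is the separated protrusion, and of the 5 sums only that of the small chaperones, at 786 to 901 CPM against 617 to 691 CPM, had no overlap. That sum rests on Timm13 and Timm8b.

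The separated protrusion departed from the attached ones in some members, as it did in some of all genes. The shares given here are not matched by level. It was more than 2 times below each attached protrusion in 9 of the 91 tested members, against 12.3% of all genes. These were Mrpl4, Mrpl50, Mrps18a, Mrps18b, Mrps26, Timm17b, Timm44, Timm50 and Tomm34. Mrpl50 had 23.2 CPM in the separated protrusion and 101, 113 and 91.6 CPM in attached protrusions 2, 3 and 4, against 0 to 47.1 CPM in open neural tubes. In 1 member, Mrps33, the separated protrusion was more than 2 times above each attached one, with 155 CPM and 65.1, 70.8 and 33.7 CPM, against 19.6 to 220 CPM in open neural tubes, and the same held for 2.15% of all genes. With 1 separated protrusion no test was possible.

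The 7 members that did not pass the low-count filter were Mrpl16, Mrps10, Mrps12, Mrps36, Timm8a2, Tomm20l and Tomm6. Mrps36 and Tomm6, a small TOM subunit, are the 2 members with no usable CATG site in any coding transcript examined. Mrps36, now assigned to the 2-oxoglutarate dehydrogenase complex rather than the ribosome, was at 0 in all 8 libraries, as was Tomm20l. Although no site was predicted for it, Tomm6 had 0.143 to 0.491 CPM in protrusions and 0.119 to 4.23 CPM in open neural tubes. Timm8a2 had 1 tag, in protrusion 3. Mrpl16 had 0 to 0.430 CPM in protrusions and 0 in all open neural tubes, where 3 tags, the limit that a count of 0 allows, are worth 0.180 to 0.529 CPM (counting error only). Mrps10 had 0.841 to 1.49 CPM in protrusions and 0.176 to 1.58 CPM in open neural tubes, and Mrps12 had 0.654 to 3.01 CPM in protrusions and 0.119 to 0.720 CPM in open neural tubes.

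Promoters of the members were read from RefSeq (GRCm38.p6, 250 bases before to 50 after each gene's start), which held 87 of the 98 genes. Motifs of 3 factors known to act on nuclear genes for mitochondrial proteins were searched on both strands. The GABP motif CCGGAAG was found in 31 genes, or 35.6% against 9.93% of all genes in the promoter table and 12.9% of its protein-coding genes. The YY1 motif AAGATGGC was found in 13 genes, or 14.9% against 3.57% of protein-coding genes, and the palindromic NRF1 motif in 3, or 3.45% against 1.47%. The GABP share was 31.7% in the large subunit, 42.3% in the small subunit, 33.3% in Timm and 37.5% in Tomm. Examples of each motif are shown with the match in capitals, since members with higher and with lower fitted levels both carry the GABP letters.
Mrps18a, GABP, chr17:46110962-46111000, plus strand: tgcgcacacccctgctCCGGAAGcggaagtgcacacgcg
Timm23, GABP, chr14:32201916-32201954, minus strand: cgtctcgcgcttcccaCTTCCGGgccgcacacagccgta
Tomm70a, GABP, chr16:57121618-57121656, plus strand: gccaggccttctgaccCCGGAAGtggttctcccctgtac
Mrps11, YY1, chr7:78783008-78783047, plus strand: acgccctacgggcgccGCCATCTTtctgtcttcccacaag
Mrpl32, NRF1, chr13:14613099-14613140, minus strand: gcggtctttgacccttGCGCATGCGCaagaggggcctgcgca
Mrps18a had a log2 fold change of 2.17, Timm23 one of -0.82 and Tomm70a one of -0.48. The matches are letters in a window and were not measured as binding. In Tomm22 GABP matches on both strands overlap each other.

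The other genes of these pathways were read from 8 lists, in each of which 0 genes were called, against 0.607% of all genes. Of all genes, 15.3% had an unadjusted p below 0.05, 7.02% higher and 8.33% lower in protrusions. The share of tested genes at such a p ran from 5.88% (mitochondrial tRNA ligases) to 33.3% (ribosomal members named otherwise). The lists are short, and no test of these shares was made. The list of import machinery named otherwise had 22 symbols, of which 21 were present in the data and 19 were tested. It had 1 higher and 2 lower at an unadjusted p below 0.05, with a median log2 fold change of -0.25. Its smallest p belonged to Immp1l, a subunit of the inner membrane peptidase, with 369, 308, 269 and 337 CPM in protrusions 1 to 4, against 727, 688, 433 and 603 CPM in open neural tubes 9, 10, 13 and 14. The groups did not overlap (log2 fold change -1.01 ± 0.21, adjusted p = 0.0584). With upper-quartile factors it was called, as were 0.933% of all genes.

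Of 38 listed symbols of mitochondrial translation and ribosome assembly factors, 29 were present in the data. Of these, 26 were tested, with 3 higher and 3 lower at that p. Trub2, a pseudouridine synthase of mitochondrial RNA, had 19.5, 29.7, 38.1 and 26.3 CPM in protrusions 1 to 4, against 11.8, 9.17, 8.23 and 7.52 CPM in open neural tubes 9, 10, 13 and 14 (log2 fold change 1.53 ± 0.39, adjusted p = 0.0832). Of 6 tested ribosomal members named otherwise, 1 was higher and 1 lower at that p, and Ptcd3, a small subunit protein, had 302 to 450 CPM in protrusions and 434 to 519 CPM in open neural tubes (log2 fold change -0.55 ± 0.18, adjusted p = 0.169). Of 17 mitochondrial tRNA ligases 1 was higher, Sars2, which charges serine tRNA, at 10.8 to 31.8 CPM in protrusions and 3.84 to 9.67 CPM in open neural tubes (log2 fold change 1.66 ± 0.55, adjusted p = 0.169).

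Chaperones and proteases had 14 of 14 genes tested, 0 higher and 2 lower at that p, or 14.3% against 15.3% of all genes. Phb2, a prohibitin of the inner membrane, had 741, 1354, 692 and 709 CPM in protrusions 1 to 4, against 1584, 1852, 1522 and 1542 CPM in open neural tubes 9, 10, 13 and 14 (log2 fold change -0.97 ± 0.25, adjusted p = 0.0832). Protrusion 2 was the highest protrusion, and without it Phb2 was called, as were 0.168% of all genes. In dynamics and the outer membrane, 11 of 11 were tested, 0 higher and 3 lower, or 27.3%. Fis1, a fission adaptor, had 59.0 to 75.7 CPM in protrusions and 86.4 to 162 CPM in open neural tubes (log2 fold change -0.96 ± 0.23, adjusted p = 0.0816). Mitochondrial DNA maintenance had 13 symbols, 8 of them present and 7 tested, with 2 higher and 0 lower. It shared Tfam, which packages mitochondrial DNA, with regulators of biogenesis (10 of 11 tested, 1 higher, 0 lower). Tfam had 126, 120, 152 and 104 CPM in protrusions 1 to 4, against 78.5, 112, 69.8 and 65.7 CPM in open neural tubes 9, 10, 13 and 14 (log2 fold change 0.54 ± 0.21, adjusted p = 0.248).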

How the data were processed

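The deposited tables give whole-number tag counts per gene symbol in each library, which per the labels' protocols were made with a SOLiD SAGE kit from 7 to 12 ng of total RNA. Genome build mm9 is named in the submitters' processing notes. The aligner, the handling of tags with several matches and the strand setting are not given in the sources used, so overlapping and antisense genes may share tags. CPM was computed from library totals. Counts were tested with edgeR 4.0.16 (R 4.3.3; filterByExpr by group with a minimum count of 10, TMM, robust quasi-likelihood F test, 2-sided, Benjamini-Hochberg over all 11036 genes tested, threshold 0.05), and the script was checked on data with known changes. Alternatives were RLE, upper-quartile and no scaling factors, other filters, DESeq2 1.42.0, limma-voom (limma 3.58.1) and leaving out libraries. Without molecular identifiers PCR copies count as molecules, so counting limits cover counting error only. Open neural tubes are numbered as in their titles, protrusions in the order listed.

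The members, lists and tests were chosen with earlier results of these data known. Named in each class were the 3 members with the largest mean CPM, the 3 with the smallest p on each side, any past the threshold, and those not tested or at 0 throughout. From each list the gene with the smallest p was named. Other members named (Timm10, Timm17b, Timm22, Timm44, Timm50, Tomm5, Mrpl39, Mrpl50, Mrps18b, Mrps18c and Mrps33 among them) were added after their values were seen. Tags were predicted from GENCODE M21 (GRCm38), promoters read from RefSeq, and no files' coordinates were used. Protein sequences were not used here.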

Additional observations from a re-analysis of the deposited data

Results flagged for a closer look

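In 75 groups of 4 libraries, of the named members above 0 in at least 2 of the 4 and of the 4 class sums, the highest or lowest library was checked for standing apart from the other 3, which chance alone gives in about 1 in 20 groups, and 7 did. Mrpl13 had 474 CPM in open neural tube 10 and 333 to 352 CPM in the other open neural tubes. Mrpl9 had 403 CPM in protrusion 2 and 274 to 292 CPM in the other protrusions. Mrps18a had 24.1 CPM in open neural tube 13 and 9.28 to 11.1 CPM in the others, and Mrps25 had 105 CPM in open neural tube 9 and 89.9 to 92.3 CPM in the others. Tomm70a had 412 CPM in protrusion 3 and 377 to 379 CPM in the other protrusions. Of members too low to test, Mrps10 had 1.58 CPM in open neural tube 9 and 0.176 to 0.358 CPM in the others, and Tomm6 had 4.23 CPM in open neural tube 10 and 0.119 to 0.691 CPM in the others.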

How the results depend on the processing

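The count of genes called, 67, was 103 with upper-quartile factors, 157 with at least 20 CPM in 4 libraries, 795 with DESeq2, 370 with limma-voom and 211 without both the separated protrusion and open neural tube 13. Leaving out 1 library gave 1 to 172, with 172 without protrusion 1, 19, 22 and 6 without protrusions 2, 3 and 4, and 1, 8, 52 and 2 without open neural tubes 9, 10, 13 and 14. The large subunit count of 0 was 1 at 20 CPM (Mrpl28) and 3 with DESeq2 (Mrpl24, Mrpl28 and Mrpl46). The small subunit count of 0 was 2 with DESeq2 (Mrps9 and Mrps18a), 2 without both libraries (Mrps16 and Mrps18a) and 0 to 1 without 1 library (Mrps18a without protrusion 1). In Mrps16 and Mrps18a the groups overlap through the libraries left out together, so those calls add no support. The import count of 0 was 3 with DESeq2 (Timm13, Timm23 and Tomm20). The count over the pathway lists, 0, was 1 with upper-quartile factors (Immp1l), 1 at 20 CPM (Immp1l), 9 with DESeq2, 3 with limma-voom (Chchd4, Immp1l and Phb2), 1 without both libraries (Immp1l) and 0 to 1 without 1 library (Chchd4 without protrusion 1, Phb2 without protrusion 2).

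Of 30 named members with a test, 8 changed sign of the log2 fold change somewhere, all with small fitted changes. Without 1 library, Mrpl13 ran from -0.020 to 0.17, Mrpl9 from -0.28 to 0.22, Mrps25 from -0.11 to 0.063, Mrps5 from -0.22 to 0.12, Timm9 from -0.23 to 0.030, Tomm22 from -0.14 to 0.19, Tomm40l from -0.52 to 0.29 and Tomm7 from -0.084 to 0.38. Mrpl13 was at -0.0096 with upper-quartile factors and Mrps25 at 0.035 with no scaling factors. Tomm22 was at 0.012 with RLE factors, 0.095 with no scaling factors, 0.016 with no filter, 0.026 at 20 CPM, 0.011 with DESeq2 and 0.10 without both libraries. Without both libraries Tomm40l was at 0.28 and Tomm7 at -0.23, and Tomm40l was at 0.084 with limma-voom. The cause was not tested. The median log2 fold change of all genes, 0.08, was 0.17 with no scaling factors, 0.35 with limma-voom and 0.47 with no filter. The small subunit median of 0.25 was 0.77 with limma-voom, 0.80 without open neural tube 13 and 0.73 without both libraries. The last 2 of these fits tested 28 and 27 small subunit members, against 26 in the main fit, so the gene set differed too. No paired analysis was possible because the groups share no replicate numbers. Depth limits what a count of 0 shows, since 3 tags were worth 0.180 to 0.529 CPM in these libraries.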
